A study of Arabidopsis thaliana with 33 samples.

Results

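The WOX homeobox genes of Arabidopsis other than WUS were followed through callus and shoot induction in hypocotyl explants. The members were the 10 listed loci WOX5, WOX7, WOX11, WOX12, WOX1, WOX3, WOX4, WOX9, WOX13 and WOX14, found by locus code among 33400 loci in the deposited count table. There were 33 RNA-seq libraries in 11 groups of 3 biological replicates. The hy5-2 mutant, which lacks normal function of the light-signalling transcription factor HY5, was sampled before culture in low light (T0), after 4 days on callus-inducing medium (CIM), and after 4 or 8 further days on shoot-inducing medium (SIM), with all of its culture in high light. Col-0, the wild type, was sampled at the same 4 times, before culture in low light and in culture in high light and in low light. All explants were hypocotyls of seedlings grown for 7 days in continuous low light (2 µmol per square metre per second), and high light was 40 in the same unit. CIM held 0.5 mg/L 2,4-D, an auxin, and 0.1 mg/L kinetin, and SIM held 0.15 mg/L IAA and 0.5 mg/L 2-iP, a cytokinin. Medium and days in culture cannot be told apart, the step from T0 to CIM in high light also changes the light, and no hy5-2 culture in low light was analysed here.

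WOX proteins are plant transcription factors with a homeodomain, and members of the family hold stem cells or founder cells in particular places. WOX5 marks the root quiescent centre, where it keeps neighbouring stem cells undifferentiated, and WOX7, its close relative, restrains lateral root development. WOX11 and WOX12 are switched on by auxin in cells that found new roots on cut tissue, and act there before LBD16, LBD29, WOX5 and WOX7. WOX4 and WOX14 promote cell division in the vascular cambium, WOX4 in response to the peptide signals CLE41 and CLE44 perceived by the receptor PXY. WOX13 and WOX14 belong to the oldest branch of the family, and WOX13 takes part in callus formation. WOX1 and WOX3 act in leaf blade outgrowth, and WOX9 in embryo and shoot meristem growth.

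The closest pairs among the members share only short runs of sequence. Their longest identical coding stretches, read from the TAIR10.1 genome with RefSeq coding sequences, are printed here in capitals with 20 coding bases on either side, because reads from close relatives could otherwise be exchanged. WOX5 and WOX7 share 20 bases, WOX11 and WOX12 share 23, and WOX13 and WOX14 share 11. Positions count from 1 at the first coding base. No 50-base exon stretch of any of the 10 genes occurred a second time in the genome.
WOX5, coding bases 53 to 112: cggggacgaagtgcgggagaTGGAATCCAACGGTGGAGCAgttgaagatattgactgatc
WOX7, coding bases 68 to 127: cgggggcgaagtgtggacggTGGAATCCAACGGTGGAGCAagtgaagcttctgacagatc
WOX11, coding bases 689 to 751: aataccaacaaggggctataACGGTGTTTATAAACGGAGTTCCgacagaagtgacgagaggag
WOX12, coding bases 602 to 664: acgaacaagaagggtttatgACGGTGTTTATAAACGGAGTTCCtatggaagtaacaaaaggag
WOX13, coding bases 296 to 346: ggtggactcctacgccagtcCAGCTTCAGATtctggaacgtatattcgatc
WOX14, coding bases 284 to 334: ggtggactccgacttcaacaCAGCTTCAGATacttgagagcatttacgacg

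The 250 bases before the RefSeq gene start are printed for the 4 root-linked members (WOX5, WOX7, WOX11, WOX12), which had few reads before culture, and for WOX4, whose window held a motif match, on the strand of the gene in build TAIR10.1. Each window of the 10 members was searched on both strands for TGTCTC, the classical auxin response element, TGTCGG, a site bound strongly by auxin response factors, and CACGTG, the G-box that HY5 can bind. TGTCTC and TGTCGG share their first 4 bases, and CACGTG can overlap either of them by its last 2. TGTCTC occurred in 10.9% of 27443 windows of the same length, TGTCGG in 4.16% and CACGTG in 6.49%. Among the 10 members, the WOX4 window held 1 match, TGTCTC on the other strand (capitals), 157 bases before the gene start, and the windows of the others held none of these letters.
WOX5, chr3:3527030-3527279, plus strand: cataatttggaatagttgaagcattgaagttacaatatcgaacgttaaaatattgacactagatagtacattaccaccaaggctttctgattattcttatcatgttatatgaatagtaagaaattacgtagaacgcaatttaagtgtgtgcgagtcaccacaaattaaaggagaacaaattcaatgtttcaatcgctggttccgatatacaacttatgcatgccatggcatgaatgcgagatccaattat
WOX7, chr5:1734177-1734426, plus strand: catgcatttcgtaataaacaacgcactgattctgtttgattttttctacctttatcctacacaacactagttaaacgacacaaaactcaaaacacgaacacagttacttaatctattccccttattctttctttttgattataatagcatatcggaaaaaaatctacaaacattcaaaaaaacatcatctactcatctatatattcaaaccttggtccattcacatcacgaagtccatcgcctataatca
WOX11, chr3:892230-892479, minus strand: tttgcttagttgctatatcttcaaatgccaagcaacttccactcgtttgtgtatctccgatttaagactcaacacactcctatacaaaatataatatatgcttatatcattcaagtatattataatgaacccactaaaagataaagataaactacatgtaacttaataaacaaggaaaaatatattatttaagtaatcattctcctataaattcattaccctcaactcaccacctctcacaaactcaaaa
WOX12, chr5:5884771-5885020, minus strand: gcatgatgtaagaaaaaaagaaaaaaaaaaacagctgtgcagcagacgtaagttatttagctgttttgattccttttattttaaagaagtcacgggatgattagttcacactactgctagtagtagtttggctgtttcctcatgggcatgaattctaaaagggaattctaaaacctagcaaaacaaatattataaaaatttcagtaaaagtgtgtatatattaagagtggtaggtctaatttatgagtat
WOX4, chr1:17238186-17238435, minus strand: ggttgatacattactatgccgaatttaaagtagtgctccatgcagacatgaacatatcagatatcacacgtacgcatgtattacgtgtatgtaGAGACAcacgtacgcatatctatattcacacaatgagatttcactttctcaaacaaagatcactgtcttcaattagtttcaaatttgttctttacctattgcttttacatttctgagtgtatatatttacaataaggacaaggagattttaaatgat

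Library totals were 7.24 M to 21.18 M counted reads (median 10.06 M). Levels are given as CPM, counts scaled to the library total after TMM adjustment. Values for 3 libraries follow the replicate order of the labels. A gene is said to have risen or fallen where the two-sided edgeR quasi-likelihood test gave a Benjamini-Hochberg adjusted p under 0.05 over all 20842 genes tested. HY5 was at 1.86 to 3.75 CPM in the 12 hy5-2 libraries and at 6.53 to 47.5 CPM in the 21 Col-0 libraries. Of the 10 members, 7 passed the filter on low counts, and WOX12, WOX3 and WOX9 did not. Whole explants were sequenced, so fewer cells of a type and less RNA per cell cannot be told apart in any value below.

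The makeup of the family, in CPM per kilobase of exon, differed between stages. Before culture the summed level of the 10 genes was 48.4 in hy5-2 and 36.7 in Col-0, of which WOX13 made 55.3% and 50.1% and WOX4 made 35.3% and 41.8%. At CIM in Col-0 the sum was 153 in high light and 154 in low light, and WOX5, WOX11, WOX13 and WOX4 each held between 18.7% and 26.1% of it. At SIM day 4 WOX11 was the first member by level in all 3 series, with 44.0% of the sum in hy5-2, 40.7% in Col-0 in high light and 44.1% in Col-0 in low light. At SIM day 8 WOX4 was first by this measure in high light, with 41.7% of the sum in hy5-2 and 45.2% in Col-0. In Col-0 in low light WOX11 (36.8%) and WOX4 (35.8%) were close. The order of genes depends on the exon lengths, which merge all RefSeq transcripts (2513 bases for WOX11 and 1443 for WOX4). In CPM not divided by length, WOX11 was above WOX4 at SIM day 8 in hy5-2 (means 100.2 and 85.95). It was below WOX4 in Col-0 in high light (83.8 and 99.27). WOX5 made 29.9% of the sum at CIM in hy5-2 and at most 1.62% in any group outside CIM.

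**Figure D1:**
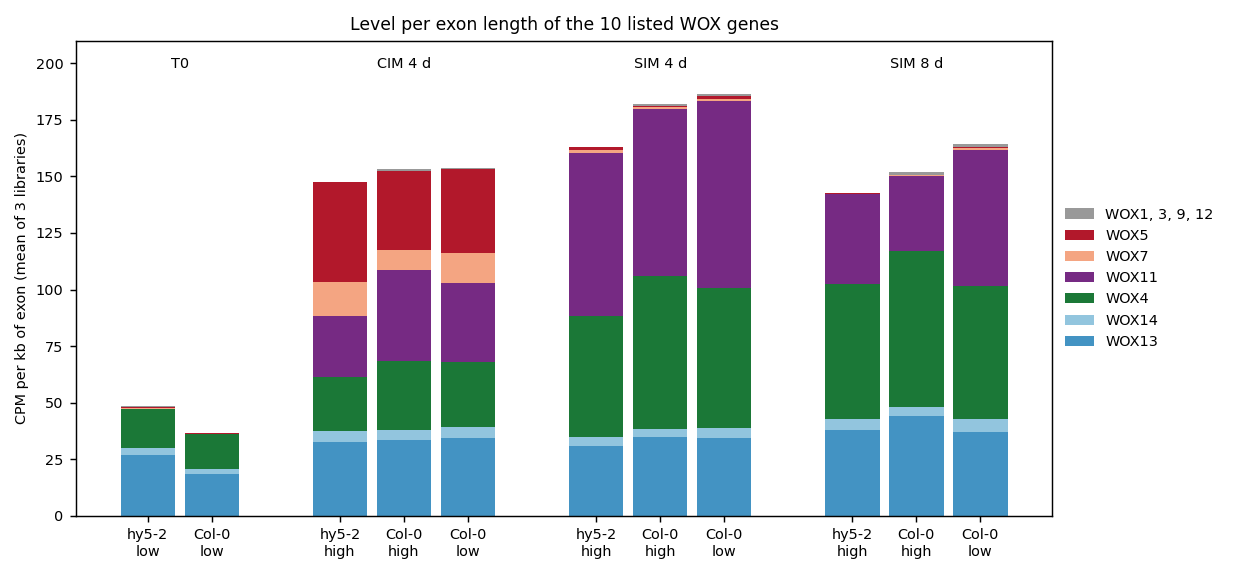
Stacked bars give the mean level of each WOX gene in CPM per kilobase of exon (3 libraries per group), with hy5-2 left of Col-0 and high light left of low light within each stage. WOX5 and WOX7 (red and salmon) appear at CIM, WOX11 (purple) is the tallest block at SIM day 4, and the sum at T0, 48.4 in hy5-2 and 36.7 in Col-0, is the lowest of all stages.

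WOX5 (AT3G11260, chromosome 3, 3527575 to 3528433, plus strand, TAIR10; 2 exon blocks) was a gene of the callus stage. Exon blocks, here and below, are counted after the exons of all RefSeq transcripts were merged. They can be fewer than the exons of a single transcript. In hy5-2 its level was 1.39, 0.307 and 0.780 CPM at T0, 45.8, 43.1 and 50.6 at CIM, 0.392, 0.785 and 2.94 at SIM day 4, and 0.0889, 0 and 0.0980 at SIM day 8. In Col-0 in high light it was 34.6, 37.9 and 38.6 CPM at CIM, 0.354, 0.424 and 0.361 at SIM day 4, and 0.121, 0 and 0.208 at SIM day 8. In Col-0 in low light it was 0.808, 0.131 and 0.478 CPM at T0, 38.6, 37.8 and 40.3 at CIM, 1.16, 0.738 and 2.19 at SIM day 4, and 0.968, 0.553 and 0.807 at SIM day 8. The CIM libraries stood at 34.6 CPM or more and all libraries of the other stages at 2.94 CPM or less, with no overlap. From T0 to CIM WOX5 rose by 5.78 ± 0.30 on the log2 scale in hy5-2 (SE; adjusted p = 6.99e-17), by 6.27 ± 0.35 in Col-0 in high light (adjusted p = 3.83e-16) and by 6.34 ± 0.35 in Col-0 in low light (adjusted p = 2.95e-16), the last 2 against the same Col-0 T0 libraries. From CIM to SIM day 4 it fell by 5.16 ± 0.26 in hy5-2 (adjusted p = 1.45e-16), fell by 6.57 ± 0.30 in Col-0 in high light (adjusted p = 3.01e-17) and fell by 4.78 ± 0.25 in Col-0 in low light (adjusted p = 6.27e-16). In hy5-2 it fell again by SIM day 8, with 2 reads over 3 libraries against 42 at SIM day 4, a ratio of 0.0511 (95% exact interval 0.00599 to 0.196, counting error only; adjusted p = 0.00149). Of those 42 reads 29 were in replicate 3, without which the fitted change was -2.92 on the log2 scale (adjusted p = 0.0260), against -4.08 with all libraries.

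WOX7 (AT5G05770, chromosome 5, 1734487 to 1734855, plus strand; 1 exon block) was also highest at CIM, at a lower level per kilobase of exon than WOX5. At CIM it was at 6.94, 6.86 and 5.15 CPM in hy5-2, 3.93, 3.98 and 3.47 CPM in Col-0 in high light, and 5.49, 6.49 and 5.47 CPM in Col-0 in low light. In no library of another stage did it pass 0.785 CPM. Before culture it had 4 reads over 3 libraries in hy5-2 and 1 read in Col-0. It rose at CIM in all 3 series, by 5.08 ± 0.46 on the log2 scale in hy5-2 (adjusted p = 5.70e-12). WOX7 passed the filter on low counts through its CIM libraries alone. The tests of its rise to CIM and its fall from CIM therefore lend no support beyond the levels given. Its ratio to T0 was 81.0 (95% exact interval 14.3 to 3220, counting error only) in Col-0 in high light and 124 (22.0 to 4924) in low light. From CIM to SIM day 4 it fell by 3.49 ± 0.33 in hy5-2 (adjusted p = 8.16e-11), fell by 3.36 ± 0.36 in Col-0 in high light (adjusted p = 1.30e-09) and fell by 3.42 ± 0.33 in low light (adjusted p = 1.54e-10). Its fall by SIM day 8 in hy5-2, 3 reads against 18 at day 4 (adjusted p = 0.0243), was lost without replicate 2 or 3 of day 4 or replicate 1 or 2 of day 8 (adjusted p 0.0629 to 0.151).

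Summed root cap markers rose at CIM and fell by SIM day 4, as WOX5 and WOX7 did, and their part in these values was not tested. The summed level of the root cap markers SMB, FEZ, BRN1 and BRN2 was 0 to 0.392 CPM at T0, where FEZ, BRN1 and BRN2 were at 0 in both genotypes. At CIM it was 23.7 to 27.8 CPM in hy5-2, 16.7 to 18.7 in Col-0 in high light and 22.5 to 25.7 in Col-0 in low light. At SIM day 8 in hy5-2 the sum was 3.2 to 3.92 CPM, while WOX5 was at 0.098 CPM or less. In Col-0 in low light the median sum was 2.67 CPM at SIM day 4 and 7.38 CPM at day 8, with overlapping ranges. All 3 tested markers rose at CIM in each series. Of all tested genes 39.8% rose in hy5-2, 39% in Col-0 in high light and 39.1% in low light. The markers were at or near 0 at T0 and passed the filter on low counts through cultured libraries alone. These calls therefore lend no support beyond the levels given. At SIM day 4 replicate 3 had the most WOX5 and the most root cap signal of its group in hy5-2, where the other replicates had 5.96 and 7.75 CPM of root cap signal, and in Col-0 in low light (9.86 CPM, against 2.67 and 2.62). In Col-0 in high light replicate 2 had the most WOX5 (0.424 CPM) and the least root cap signal (1.91 CPM). The summed epidermis and stomata markers ATML1, PDF1, SPCH and FAMA were also highest at CIM in every series. In hy5-2 their sum was 95.3 to 117 CPM at T0, 251 to 302 at CIM and 6.98 to 12.8 at SIM day 4. Of the 3 tested there, 1 rose and 2 fell at CIM (39.8% and 41% of all tested genes). Their part was not tested.

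WOX11 (AT3G03660, chromosome 3, 889509 to 892162, minus strand; 2 exon blocks) was nearly absent from intact hypocotyls and was highest at SIM day 4 in all 3 series. Before culture it had 2 reads over the 3 libraries of hy5-2 and 1 read in Col-0, so the gene was close to undetected there. In hy5-2 it was at 78.9, 63.9 and 63.8 CPM at CIM, 180.5, 197 and 163 at SIM day 4, and 92.3, 99.9 and 108 at SIM day 8. In Col-0 in high light it was at 123, 93.2 and 85.4 CPM at CIM, 190.0, 188 and 179.9 at SIM day 4, and 112, 87.7 and 51.2 at SIM day 8. In Col-0 in low light it was at 96.9, 80.8 and 85.4 CPM at CIM, 213, 213 and 194 at SIM day 4, and 156, 149 and 151 at SIM day 8. In each series the SIM day 4 libraries stood above all others of that series, and at SIM day 8 the libraries of Col-0 in high light were spread widely (83.8 ± 30.8 CPM, SD, n = 3). Its ratio to T0 at CIM was 779 in hy5-2 (95% exact interval 215 to 6432, counting error only), 2129 in Col-0 in high light (382 to 84120) and 1858 in Col-0 in low light (333 to 73400). From CIM to SIM day 4 it rose by 1.39 ± 0.17 on the log2 scale in hy5-2 (adjusted p = 9.06e-08), 0.89 ± 0.16 in Col-0 in high light (adjusted p = 5.31e-05) and 1.24 ± 0.16 in low light (adjusted p = 7.08e-07). From SIM day 4 to day 8 it fell by 0.85 ± 0.16 in hy5-2 (adjusted p = 0.000404) and by 1.16 ± 0.17 in Col-0 in high light (adjusted p = 1.15e-05). In Col-0 in low light the change was -0.45 ± 0.16 and did not pass (adjusted p = 0.0638), but it passed with the replicate number as a block (adjusted p = 0.0321), with DESeq2 (0.0464) and with only the groups compared in the fit (0.000309).

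WOX12 (AT5G17810, chromosome 5, 5880443 to 5884770, minus strand; 4 exon blocks), the partner gene of WOX11, had 160 reads in all, against 42009 for WOX11. At T0 it had 0, 2 and 2 reads in hy5-2 and 1 read in each Col-0 library. In the cultured Col-0 libraries it had 6 to 15 reads in high light (median 9) and 3 to 8 reads in low light (median 6). In the 9 cultured hy5-2 libraries it had 0 to 3 reads (median 1). In Col-0 it had 33 reads at CIM in high light, against 3 at T0, a ratio of 5.64 (95% exact interval 1.77 to 28.8, counting error only). It rose there in the edgeR fit without a filter (adjusted p = 0.00353), in which 29.2% of 28262 genes rose. In low light it had 14 reads at CIM, a ratio of 3.095 (0.864 to 16.8), and did not pass in that fit (adjusted p = 0.108). In hy5-2 it had 7 reads at CIM against 4 at T0, and the change of -0.12 ± 0.90 on the log2 scale did not pass.

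**Figure D2:**
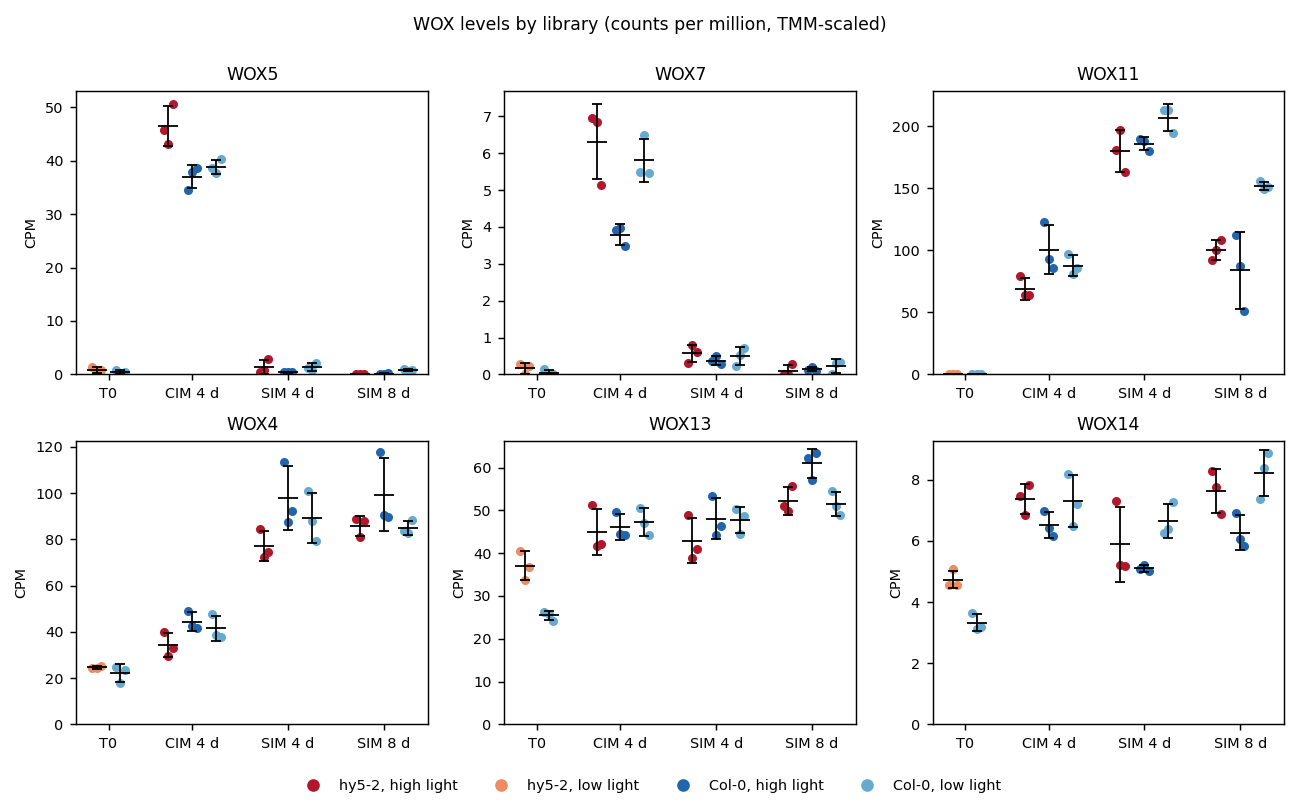
Points are the CPM of single libraries, and bars are the mean ± SD of 3, with hy5-2 left of Col-0 and high light left of low light at each stage. WOX5 and WOX7 stand above 3 CPM at CIM alone, WOX11 is highest at SIM day 4, WOX4 is higher on SIM than on CIM, and WOX13 at T0 is higher in hy5-2 (33.8 to 40.6 CPM) than in Col-0 (24.2 to 26.3 CPM).

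WOX4 (AT1G46480, chromosome 1, 17236678 to 17238053, minus strand; 2 exon blocks), the cambium regulator, went up in steps and stayed high. In hy5-2 it was at 24.4, 24.4 and 25.3 CPM at T0, 39.8, 29.7 and 33.1 at CIM, 84.6, 72.4 and 74.6 at SIM day 4, and 89.0, 81.0 and 87.9 at SIM day 8. In Col-0 in high light it was at 49.1, 42.7 and 41.5 CPM at CIM, 114, 87.7 and 92.4 at SIM day 4, and 118, 90.7 and 89.5 at SIM day 8. In Col-0 in low light it was at 25.04, 17.9 and 23.6 CPM at T0, 47.8, 38.7 and 38.0 at CIM, 101, 87.9 and 79.3 at SIM day 4, and 83.5, 82.7 and 88.5 at SIM day 8. In every series the T0, CIM and SIM ranges did not overlap, and the ranges of the SIM days did. It rose at CIM by 0.47 ± 0.14 on the log2 scale in hy5-2 (adjusted p = 0.00333), 1.01 ± 0.14 in Col-0 in high light (adjusted p = 2.12e-07) and 0.90 ± 0.14 in low light (adjusted p = 2.03e-06). It rose from CIM to SIM day 4 by 1.18 ± 0.12 in hy5-2 (adjusted p = 1.83e-09), 1.13 ± 0.12 in Col-0 in high light (adjusted p = 2.54e-09) and 1.11 ± 0.12 in low light (adjusted p = 7.99e-09). From SIM day 4 to day 8 its change was 0.15 ± 0.12 in hy5-2, 0.03 ± 0.11 in Col-0 in high light and -0.07 ± 0.12 in low light, and none passed (adjusted p 0.436 to 0.923).

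Xylem markers did not follow the course of WOX4, and their part in its values was not tested. The summed level of XCP1, XCP2, VND7, CESA7, CESA4 and CESA8 in hy5-2 was 764 to 860 CPM at T0, 118.5 to 132.5 at CIM, 413 to 509 at SIM day 4 and 197.6 to 263.9 at SIM day 8. In Col-0 in low light it was 649 to 745 CPM at T0, 146 to 196 at CIM, 470 to 644 at SIM day 4 and 141 to 171 at SIM day 8. The upstream signal changed in parts: CLE44, a peptide gene, was at 6.80 to 9.42 CPM at T0 and 71.4 to 72.5 at CIM in hy5-2, and PXY, the receptor gene, was at 209 to 220 CPM at T0 and 426 to 491 at SIM day 4. In Col-0 in low light CLE44 rose at CIM by 3.29 ± 0.11 on the log2 scale (adjusted p = 7.68e-23), CLE41 fell by 1.25 ± 0.09 (adjusted p = 6.89e-14), and PXY rose by 0.51 ± 0.09 (adjusted p = 1.14e-05).

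WOX14 (AT1G20700, chromosome 1, 7182558 to 7184009, plus strand; 1 exon block), which acts beside WOX4 in vascular tissue, stayed at low levels. It was at 4.57, 5.07 and 4.57 CPM at T0 in hy5-2 and at 3.64, 3.14 and 3.19 CPM in Col-0. In culture it lay between 5.01 and 8.88 CPM in every library, and 1 T0 library of hy5-2 (5.07 CPM) reached into that range. It rose at CIM by 0.65 ± 0.14 on the log2 scale in hy5-2 (adjusted p = 0.000146), 0.97 ± 0.16 in Col-0 in high light (adjusted p = 1.99e-06) and 1.12 ± 0.16 in low light (adjusted p = 1.72e-07). It fell from CIM to SIM day 4 by 0.31 ± 0.13 in hy5-2 (adjusted p = 0.0423), a call lost without replicate 1 or 3 at CIM or 2 or 3 at SIM (adjusted p 0.0800 to 0.211). In Col-0 in high light it fell by 0.35 ± 0.13 (adjusted p = 0.0234), lost without CIM replicate 1 or SIM replicate 1 or 3 (adjusted p 0.0509 to 0.0875).

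WOX13 (AT4G35550, chromosome 4, 16875521 to 16877306, minus strand; 3 exon blocks) had reads in every library. It was at 40.6, 33.8 and 36.8 CPM at T0 in hy5-2 and at 26.3, 25.9 and 24.2 CPM in Col-0. In culture it lay between 38.9 and 63.5 CPM. It rose at CIM by 0.28 ± 0.09 on the log2 scale in hy5-2 (adjusted p = 0.00784), a call lost without T0 replicate 2 (adjusted p = 0.0940) or CIM replicate 1 (0.0922). In Col-0 it rose by 0.85 ± 0.10 in high light (adjusted p = 2.03e-09) and 0.89 ± 0.10 in low light (adjusted p = 1.22e-09). It rose once more from SIM day 4 to day 8, by 0.35 ± 0.09 in Col-0 in high light (adjusted p = 0.00298) and by 0.28 ± 0.09 in hy5-2 (adjusted p = 0.0247), a call lost in hy5-2 without day 4 replicate 2 or 3 or day 8 replicate 3 (adjusted p 0.109 to 0.146). The interval of WOX13 overlaps AT4G35540 on the opposite strand, which had 3205 reads in all, and the strand setting of the counting is not given in the sources used here, so part of these reads is of uncertain origin.

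The leaf and embryo members stayed near the limit of detection. WOX1 (AT3G18010, chromosome 3, 6161137 to 6163272, minus strand; 4 exon blocks) was at 0 to 1.38 CPM. It was highest in Col-0 in low light, at 0.695, 1.21 and 1.22 CPM at SIM day 4 and 1.09, 1.34 and 1.38 CPM at SIM day 8. WOX1 passed the filter on low counts mainly through these libraries. Tests of its changes to or from these groups therefore lend no support beyond the levels. It rose from CIM to SIM day 4 in Col-0 in high light (2.22 ± 0.60 on the log2 scale, adjusted p = 0.00233), a call lost without SIM replicate 3 (1.53, adjusted p = 0.0915). In low light the change of 1.03 ± 0.46 did not pass (adjusted p = 0.0680), and passed without SIM day 4 replicate 1 (1.19, adjusted p = 0.0453). Its rise at CIM in Col-0 in low light, 17 reads against 3 at T0 (adjusted p = 0.0431), was lost without T0 replicate 1 or 2 or any 1 CIM replicate (adjusted p 0.0502 to 0.202), without a filter (0.0547) and with DESeq2 (0.0719). WOX3 (AT2G28610, chromosome 2) had 2, 0 and 2 reads and WOX9 (AT2G33880, chromosome 2) 0, 1 and 1 reads in Col-0 at SIM day 8 in high light, and both had 0 reads in the other 10 groups. A count of 0 over 3 libraries allows a level of up to 0.0670 to 0.141 CPM (3 reads over the group, counting error only).

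**Figure D3:**
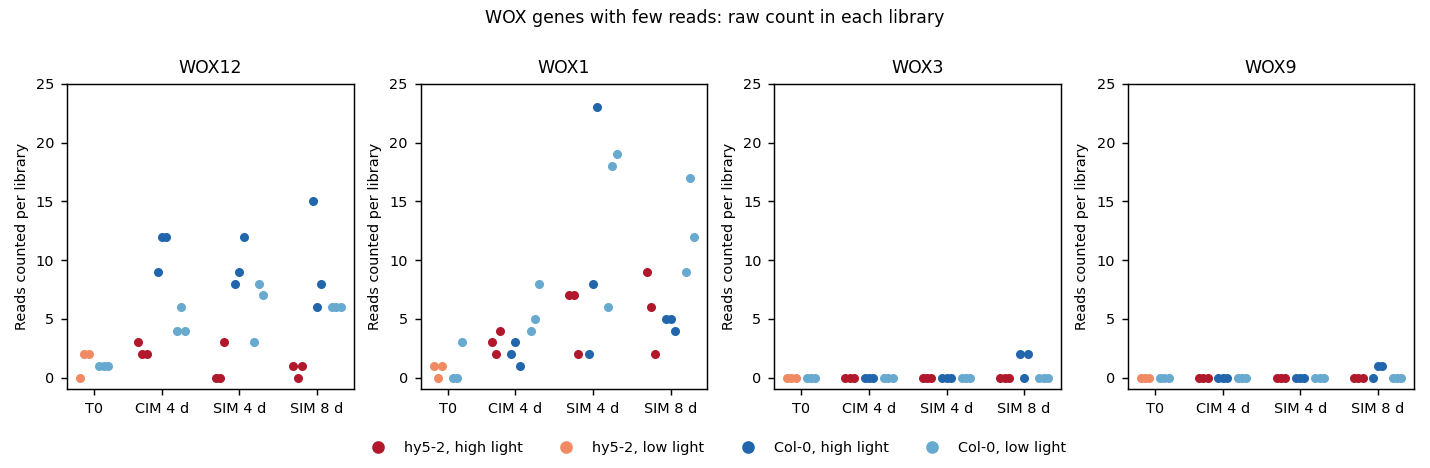
Points are raw reads in single libraries for the 4 members with few reads, with hy5-2 left of Col-0 and high light left of low light at each stage. WOX12 lies at 0 to 3 reads in cultured hy5-2 and at 6 to 15 in cultured Col-0 in high light, WOX1 is spread from 1 to 23 reads in culture, and WOX3 and WOX9 have reads in Col-0 at SIM day 8 in high light alone.

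The counts of members that moved stand here beside those of all tested genes. WOX7 passed the filter on low counts through its CIM libraries, and WOX1 mainly through low-light SIM libraries of Col-0. For these reasons, and because WOX12, WOX3 and WOX9 did not pass, nothing about the family is read from these counts. From T0 to CIM, 6 of the 7 tested members rose in hy5-2, where 39.8% of all tested genes rose and 41% fell (80.9% called). In Col-0, 6 members rose in high light, where 39% of all tested genes rose and 39.9% fell (78.9%), and 7 rose in low light, where 39.1% rose and 40% fell (79.1%). No member fell, and the CIM comparisons of Col-0 share their T0 libraries. From CIM to SIM day 4, 2 members rose and 3 fell in hy5-2, beside 25.5% and 27.6% of all tested genes (53.1% called). In Col-0, 3 rose and 3 fell in high light, beside 25.7% and 23.2% (49%), and 2 rose and 2 fell in low light, beside 21.5% and 22.3% (43.9%). From SIM day 4 to day 8, 1 rose and 3 fell in hy5-2, beside 8.71% and 11.1% (19.8%), and 1 rose and 1 fell in Col-0 in high light, beside 12% and 10.5% (22.4%). In low light edgeR called none, beside 6.65% of all tested genes that rose and 8.23% that fell (14.9%), while WOX11 and WOX14 had an unadjusted p under 0.05 and DESeq2 called 1. WOX14 did not pass from SIM day 4 to day 8 in hy5-2 (0.36 ± 0.13, adjusted p = 0.0586), and passed there without day 4 replicate 1 (0.56, adjusted p = 0.00716) or day 8 replicate 3 (0.43, adjusted p = 0.0404).

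High light was compared with low light in Col-0 to ask whether light acts on these genes in culture. At CIM no tested member was called by edgeR or DESeq2, where 5.14% of all tested genes rose and 3.14% fell (8.29% called). WOX7 (-0.61 ± 0.24) and WOX1 (-1.79 ± 0.67) had an unadjusted p under 0.05 there. At SIM day 4, 2 members fell and none rose, where 4.39% of all tested genes fell and 9.09% rose (13.5%). At SIM day 8, 4 fell and 1 rose, where 11.6% fell and 16% rose (27.6%).

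WOX11 had the lower level in high light at SIM day 8, at 112, 87.7 and 51.2 CPM, against 156, 149 and 151 CPM in low light. The groups did not overlap. It fell by 0.86 ± 0.17 on the log2 scale (adjusted p = 0.000270, 0.00157 at most when 1 library was left out). With only the compared groups in the fit the change was -0.85 and did not pass (adjusted p = 0.0767). At CIM its change with light was 0.20 ± 0.17 (adjusted p = 0.607), and the effect at SIM day 8 differed from that at CIM by -1.06 ± 0.24 (adjusted p = 0.00380; 10.6% of all tested genes were called for this difference, 6.99% up and 3.66% down). All 6 xylem markers rose in high light at SIM day 8, with summed levels of 287 to 331 CPM in high light and 141 to 171 CPM in low light, and the chlorophyll-linked genes RBCS1A and LHCB1.3 summed to 779 to 828 CPM in high light and 34.1 to 56.9 CPM in low light. Levels of these genes do not tell cell numbers from RNA per cell, and their part in the WOX11 value was not tested.

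WOX5 was lower in high light on SIM, where it was already scarce. At SIM day 4 it fell by 1.86 ± 0.54 on the log2 scale (adjusted p = 0.0175), and the libraries, given above, did not overlap. The call was lost without low-light replicate 3 (-1.21, adjusted p = 0.303) or high-light replicate 3 (-1.79, adjusted p = 0.0929). At SIM day 8 it had 3 reads in high light and 22 in low light, a ratio of 0.144 (95% exact interval 0.0277 to 0.481, counting error only; adjusted p = 0.0449). That call was lost without low-light replicate 1 or 3 or any 1 high-light replicate (adjusted p 0.0593 to 0.151) and without a filter on low counts (0.0820). The summed root cap markers were at 1.91 to 3.07 CPM in high light and 2.62 to 9.86 CPM in low light at SIM day 4, and at 0.607 to 1.89 CPM in high light and 2.37 to 7.61 CPM in low light at SIM day 8, and their part was not tested.

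The other members called for light moved less or rested on few libraries. WOX14 fell by 0.39 ± 0.13 on the log2 scale at SIM day 4 (adjusted p = 0.0416) and by 0.40 ± 0.14 at SIM day 8 (adjusted p = 0.0262). The first call was lost without low-light replicate 2 or 3 or any 1 high-light replicate (adjusted p 0.0571 to 0.248), and the second without replicate 2 or 3 of either light (adjusted p 0.0784 to 0.111). Neither WOX14 call held without a filter, with DESeq2 or with only the groups compared (adjusted p 0.0603 to 0.125). WOX1 fell by 1.33 ± 0.49 at SIM day 8 (adjusted p = 0.0390), lost without low-light replicate 2 or 3 or any 1 high-light replicate (adjusted p 0.0594 to 0.123), without a filter (0.0624) and with DESeq2 (0.0725). Its levels there were 0.607, 0.497 and 0.416 CPM in high light, against 1.09, 1.34 and 1.38 CPM in low light. Because WOX1 passed the filter mainly through low-light SIM libraries, this test lends no support beyond those levels. WOX13 rose by 0.24 ± 0.09 at SIM day 8 (adjusted p = 0.0375), lost without low-light replicate 2 or 3 or high-light replicate 1 or 3 (adjusted p 0.0862 to 0.123), with RLE scaling (0.0502) and with DESeq2 (0.0626). WOX4 did not pass for light at any stage (0.11 to 0.22 on the log2 scale, adjusted p 0.166 to 0.743).

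**Figure D4:**
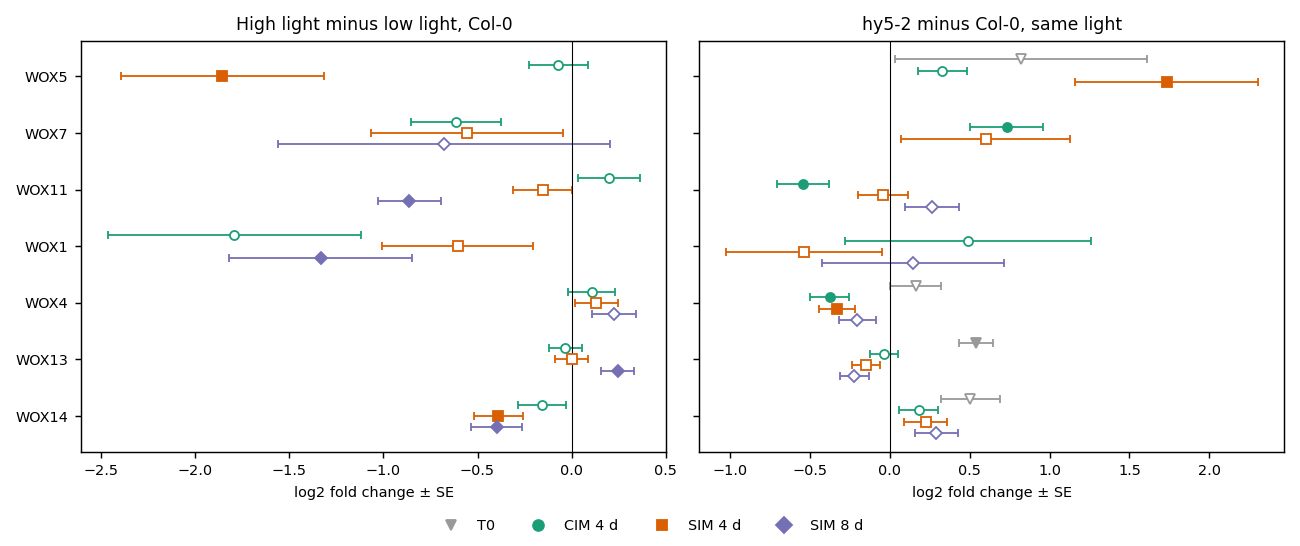
Points are log2 fold changes with their SE, for high light minus low light in Col-0 on the left and for hy5-2 minus Col-0 in the same light on the right, and filled symbols passed the test. Comparisons in which a group had 3 reads or fewer are left out; the WOX11 light effect is 0.20 at CIM and -0.86 at SIM day 8, and WOX13 at T0 is the filled triangle at 0.54.

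hy5-2 was compared with Col-0 in the same light to ask what loss of HY5 changes. At T0, 1 of 7 tested members rose, where 1.98% of all tested genes rose and 3.14% fell (5.12% called). At CIM 1 rose and 2 fell, beside 6.37% and 9.15% (15.5%), and at SIM day 4 1 rose and 1 fell, beside 10.4% and 10% (20.4%). At SIM day 8 none was called by edgeR or DESeq2, where 10.1% of all tested genes rose and 13.4% fell (23.5%), and WOX13 and WOX14 had an unadjusted p under 0.05.

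WOX13 was higher in hy5-2 hypocotyls before culture, at 40.6, 33.8 and 36.8 CPM, against 26.3, 25.9 and 24.2 CPM in Col-0. The means were 37.0 ± 3.40 CPM in hy5-2 and 25.5 ± 1.08 CPM in Col-0 (SD, n = 3 each). The groups did not overlap, and WOX13 rose by 0.54 ± 0.11 on the log2 scale (adjusted p = 0.00139, 0.0203 at most when 1 library was left out). In culture it did not pass for genotype (-0.04 ± 0.09 at CIM, -0.15 ± 0.09 at SIM day 4 and -0.22 ± 0.09 at SIM day 8, adjusted p 0.0650 to 0.832). At SIM day 8 it passed without Col-0 replicate 2 (-0.27, adjusted p = 0.0422) or hy5-2 replicate 3 (-0.28, adjusted p = 0.0451). Because WOX13 overlaps AT4G35540 on the opposite strand, as given above, part of its reads in these comparisons is of uncertain origin. The level of AT4G35540 in each genotype is not given here.

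In callus WOX11 and WOX4 fell in hy5-2 and WOX7 rose. WOX11 fell by 0.54 ± 0.17 on the log2 scale in hy5-2 at CIM (adjusted p = 0.0248), with 63.8 to 78.9 CPM in hy5-2 and 85.4 to 123 CPM in Col-0. The call was lost without Col-0 replicate 1 (-0.38, adjusted p = 0.182) or hy5-2 replicate 2 or 3 (adjusted p 0.0989 and 0.113). WOX4 fell by 0.38 ± 0.12 at CIM (adjusted p = 0.0351), lost without replicate 1 or 2 of Col-0 or 2 or 3 of hy5-2 (adjusted p 0.0593 to 0.183) and without a filter (0.0600). WOX7 rose by 0.73 ± 0.23 at CIM (adjusted p = 0.0254), with 5.15 to 6.94 CPM in hy5-2 and 3.47 to 3.98 CPM in Col-0, lost without any 1 Col-0 replicate or hy5-2 replicate 1 or 2 (adjusted p 0.0595 to 0.1002). WOX5 was at 43.1 to 50.6 CPM in hy5-2 and 34.6 to 38.6 CPM in Col-0 at CIM, without overlap, but did not pass (0.33 ± 0.15, adjusted p = 0.161), and it passed with only the groups compared in the fit (adjusted p = 0.0177). Markers of other cells moved with genotype at CIM, and their part in these values was not tested. Of the 6 xylem markers 5 fell in hy5-2, with summed levels of 118.5 to 132.5 CPM in hy5-2 and 192 to 230.4 CPM in Col-0. Both chlorophyll-linked genes fell, with sums of 10.8 to 28.1 CPM in hy5-2 and 159 to 294 CPM in Col-0. The root cap sum was 23.7 to 27.8 CPM in hy5-2 and 16.7 to 18.7 CPM in Col-0, and of its 3 tested markers BRN1 rose (1.04 ± 0.28, adjusted p = 0.0114).

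At SIM day 4 WOX4 fell by 0.33 ± 0.11 on the log2 scale in hy5-2 (adjusted p = 0.0386), with 72.4 to 84.6 CPM in hy5-2 and 87.7 to 114 CPM in Col-0, lost without Col-0 replicate 1 (-0.23, adjusted p = 0.221), hy5-2 replicate 2 or 3 (adjusted p 0.131 and 0.128) or a filter (0.0631). WOX5 rose by 1.73 ± 0.57 (adjusted p = 0.0289), but this rested on hy5-2 replicate 3, without which the change was 0.57 (adjusted p = 0.642). It was lost also without any 1 Col-0 replicate (adjusted p 0.0568 to 0.117) and without a filter (0.0547). Among the root cap markers, SMB and BRN1 rose in hy5-2 at this stage, and the sum was 5.96 CPM or more in hy5-2 and 1.91 to 3.07 CPM in Col-0, and their part was not tested. None of the 6 xylem markers passed for genotype at SIM day 4 (413 to 509 CPM in hy5-2 and 519.5 to 574.5 CPM in Col-0).

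WOX12 was low in hy5-2 at each cultured stage, with 0 to 3 reads per library in hy5-2 and 6 to 15 reads in Col-0 in the same light. At CIM it had 3, 2 and 2 reads in hy5-2 and 9, 12 and 12 in Col-0, at SIM day 4 it had 0, 0 and 3 reads in hy5-2 and 8, 9 and 12 in Col-0, and at SIM day 8 it had 1, 0 and 1 reads in hy5-2 and 15, 6 and 8 in Col-0. The genotypes did not overlap at any of these stages. WOX12 did not pass the filter on low counts, so it was tested in the fit without a filter, over 28262 genes. There it fell in hy5-2 at CIM by 2.23 on the log2 scale (adjusted p = 0.00572), at SIM day 4 (adjusted p = 0.00463) and at SIM day 8 (adjusted p = 0.000108), where 6.35%, 7.08% and 9.71% of genes fell. By counts the ratio of hy5-2 to Col-0 was 0.141 at SIM day 4 (95% exact interval 0.0275 to 0.455, counting error only) and 0.0630 at SIM day 8 (0.00728 to 0.249). At T0, with 4 reads in hy5-2 and 3 in Col-0, the ratio was 1.25 (0.212 to 8.56). Both chlorophyll-linked genes fell in hy5-2 at all 3 cultured stages, with sums of 4.56 to 10.8 CPM in hy5-2 and 386 to 516 CPM in Col-0 at SIM day 4, and 16.5 to 38.7 CPM in hy5-2 and 779 to 828 CPM in Col-0 at SIM day 8. Xylem markers fell at CIM (5 of 6) and SIM day 8 (4 of 6, 197.6 to 263.9 CPM in hy5-2 and 287 to 331 CPM in Col-0). Levels of these marker genes do not tell cell numbers from RNA per cell, and their part in the WOX12 counts was not tested. WOX11, which had 63.8 CPM or more in all cultured hy5-2 libraries, was lower in hy5-2 at CIM and did not pass at SIM day 4 (-0.04 ± 0.16, adjusted p = 0.920) or day 8 (0.26 ± 0.17, adjusted p = 0.291), where it passed without Col-0 replicate 1 (0.52, adjusted p = 0.0197).

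The genotype effect on WOX11 shifted between stages: at SIM day 8 it differed from that at CIM by 0.81 ± 0.24 on the log2 scale (adjusted p = 0.0240; 12.9% of all tested genes were called for this difference, 5.82% up and 7.08% down). WOX11 was at 92.3, 99.9 and 108 CPM at SIM day 8 in hy5-2 and at 112, 87.7 and 51.2 CPM in Col-0 in high light, with overlap. The shift was lost without Col-0 CIM replicate 1, hy5-2 CIM replicate 2 or 3 or hy5-2 SIM day 8 replicate 3 (adjusted p 0.0575 to 0.0768) and with only the compared groups in the fit (0.163). No member was called between CIM and SIM day 4 for a shift in its response to light, where 0.988% of all tested genes shifted up and 0.398% down (1.39% called). WOX5 had an unadjusted p under 0.05 there (-1.79 ± 0.56, adjusted p = 0.130), and passed with DESeq2 (adjusted p = 0.0311) and without SIM day 4 low-light replicate 2 (adjusted p = 0.0424). None was called for a shift in the response to genotype either, where 4.28% shifted up and 3.08% down (7.36%). WOX5 (1.40 ± 0.59) and WOX11 (0.50 ± 0.23) had an unadjusted p under 0.05, DESeq2 called none, and WOX5 passed without hy5-2 SIM day 4 replicate 1 (1.92, adjusted p = 0.0247).

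Genes known to act upstream of WOX members, or as their targets, were counted from a list of 13, all tested. This list and the list of partners below were written with earlier results of these data known. A count or median above that of all tested genes is therefore not read as a result. From T0 to CIM 11 rose and none fell in hy5-2 (39.8% and 41% of all tested genes), 10 rose and 2 fell in Col-0 in high light (39% and 39.9%), and 10 rose and 1 fell in low light (39.1% and 40%). From CIM to SIM day 4 none rose and 12 fell in hy5-2 (25.5% and 27.6%), 1 rose and 12 fell in Col-0 in high light (25.7% and 23.2%), and none rose and 11 fell in low light (21.5% and 22.3%). PLT1, a root stem cell transcription factor, was at 77.5, 77.7 and 82.5 CPM at CIM in hy5-2, 38.3, 34.5 and 39.6 CPM in Col-0 in high light and 43.4, 48.7 and 52.2 CPM in Col-0 in low light. LBD16, which WOX11 activates in founder cells, was at 52.2, 62.8 and 64.3 CPM at CIM in hy5-2, 39.2, 55.5 and 52.7 CPM in Col-0 in high light and 39.3, 52.8 and 43.9 CPM in low light. LBD16 and LBD29 fell from CIM to SIM day 4 in Col-0 in low light by 3.09 ± 0.19 and 4.77 ± 0.28 on the log2 scale (adjusted p = 9.02e-14 and 5.25e-14), while WOX11 rose.

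Between genotypes 6 of the 13 genes rose and none fell in hy5-2 at CIM (6.37% and 9.15% of all tested genes), 5 rose and 1 fell at SIM day 4 (10.4% and 10%), and 1 rose and 5 fell at SIM day 8 (10.1% and 13.4%). Their medians were 0.32, 0.21 and 0.01 on the log2 scale, beside 0.01 over all tested genes at each stage. The 6 at CIM were PLT1 (1.08 ± 0.26, adjusted p = 0.00568), PLT2 (0.62 ± 0.17, adjusted p = 0.0127), SCR, which acts with WOX5 in the quiescent centre (0.75 ± 0.11, adjusted p = 3.99e-06), the auxin synthesis gene TAA1 (2.06 ± 0.28, adjusted p = 1.27e-06), the D-type cyclin gene CYCD3;3 (0.82 ± 0.13, adjusted p = 1.68e-05) and ROW1, a repressor of WOX5 (0.32 ± 0.10, adjusted p = 0.0294). With light none of the 13 was called at CIM (8.29% of all tested genes), none rose and 3 fell at SIM day 4 (9.09% and 4.39%), among them PLT1 (-1.73 ± 0.54, adjusted p = 0.0346), and 2 rose and 2 fell at SIM day 8 (16% and 11.6%).

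Partners and peptide signals moved in both directions. Of 16 genes, which code for HAM partners, TPL and TPR co-repressors, CLE peptides and their receptors, 15 were tested. From T0 to CIM 10 rose and 4 fell in hy5-2 (39.8% and 41% of all tested genes, 80.9% called). In Col-0, 9 rose and 4 fell in high light (39% and 39.9%, 78.9% called). In low light 10 rose and 3 fell (39.1% and 40%, 79.1% called). TPR3 rose at CIM in Col-0 in low light by 2.04 ± 0.07 on the log2 scale (adjusted p = 3.24e-22) and CLV1, a receptor kinase gene of meristems, fell by 3.70 ± 0.13 (adjusted p = 7.44e-23). In hy5-2 against Col-0, 4 rose and 2 fell at CIM (6.37% and 9.15% of all tested genes), 2 rose and none fell at SIM day 4 (10.4% and 10%), and 1 rose and 2 fell at SIM day 8 (10.1% and 13.4%), so that the counts at the SIM stages are near or below the shares over all genes. PXY fell in hy5-2 at CIM (-0.29 ± 0.09, adjusted p = 0.0248) and at SIM day 8 (-0.31 ± 0.09, adjusted p = 0.0100), and the CLE44 gene rose at SIM day 8 (0.50 ± 0.09, adjusted p = 2.75e-05). In Col-0 at SIM day 8 in high light against low light, PXY (0.36 ± 0.09, adjusted p = 0.00232) and CLE41 (0.36 ± 0.08, adjusted p = 0.000310) rose and CLE44 fell (-0.38 ± 0.09, adjusted p = 0.000951).

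The genes whose pattern was most like each member were found by Pearson's r of log2(CPM + 0.5) over the 11 group means, among 8161 genes with a symbol. The points share libraries and stages, and the values describe likeness only. For WOX5 they were LUP2 (r = 0.994), PUCHI (0.987), which acts in lateral root primordia, and PRORP2 (0.986). For WOX7 they were BXL3 (0.992), the peptide gene RGF8 (0.991) and AOX1B (0.989). For WOX11 they were GC1 (0.998), the cytokinin oxidase gene CKX3 (0.997) and NIP1;2 (0.995). For WOX4 they were FES1 (0.991), the expansin gene EXPA15 (0.990) and CIB1 (0.990), and for WOX13 they were PXN (0.969), the response regulator gene RR10 (0.957) and NF-YC9 (0.952). WOX14 was most like ERF11 (0.954), ERF1 (0.944) and AR401 (0.940), and WOX1 like ACBP4 (0.936), GLR3.6 (0.935) and DGK1 (0.928).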

How the data were processed

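The authors deposited raw counts, whole numbers of reads per locus, in 1 table of 33 libraries; STAR, SAMtools, bedtools, edgeR and build TAIR10 are named in the submitters' processing notes, per the labels the kit was a stranded mRNA kit, and neither the strand setting of the counting nor the handling of multi-mapping reads is stated there. The model for counts used edgeR 4.0.16 and R 4.3.3 (filterByExpr, minimum count 10 and minimum total 15, 20842 of 33400 loci kept; TMM; robust quasi-likelihood; 1 coefficient per group over all libraries; common biological coefficient of variation 0.0745). Replicates are biological per the series' design; within groups their log levels correlated at 0.985 to 0.994 and no libraries were identical. SE is the log2 fold change divided by the square root of F. The model was tested on data simulated from its own fit for light at SIM day 8 alone, and the outcome is not given here. All 10 WOX loci were described; likeness took genes with a symbol that reached 5 CPM in some group. The members and lists were chosen with earlier results of these data known. Alternatives were RLE scaling, no filter, DESeq2 1.42.0, a replicate block, only the groups compared, and leaving out each library. Same-numbered replicates deviated together (correlations over 0.1 for all 3 numbers) in 6 of 16 comparisons between groups, as a check of the numbers given in the labels: CIM to SIM day 4 and SIM day 4 to day 8 in Col-0 low light, light at SIM day 4, and genotype at T0, CIM and SIM day 4. Sequences are from TAIR10.1 with RefSeq annotation, matched by locus code (61 of 61 named genes).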

Additional observations from a re-analysis of the deposited data

Results flagged for a closer look

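The light effect on WOX11 differed between stages. High light minus low light in Col-0 was -0.86 ± 0.17 on the log2 scale at SIM day 8 and 0.20 ± 0.17 at CIM, and the difference, tested as an interaction in edgeR, was -1.06 ± 0.24 (adjusted p = 0.00380), between -1.32 and -0.80 when 1 library was left out (adjusted p at most 0.0133). In a fit of the compared groups alone it was -1.11 (adjusted p = 0.0677). The genotype effect on WOX11, hy5-2 minus Col-0, was 0.26 ± 0.17 at SIM day 8 and -0.54 ± 0.17 at CIM, and the difference was 0.81 ± 0.24 (adjusted p = 0.0240), between 0.55 and 1.07 when 1 library was left out, with 4 of 12 such fits over the threshold. Both differences use the same Col-0 high-light libraries at SIM day 8 (112, 87.7 and 51.2 CPM).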

How the results depend on the processing

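Over 610 repeats of 55 called gene values under other settings, 517 kept their direction and call, 93 kept their direction and lost the call, and 0 turned round. The counts of members called moved as follows. From SIM day 4 to day 8 in Col-0 in low light the count of 0 was 1 with the replicate block, with DESeq2 and with only the groups compared, and in hy5-2 the count of 4 was 2 with only the groups compared. For light the count of 0 at CIM was 1 with only the groups compared; the count of 2 at SIM day 4 was 1 without a filter, with DESeq2 and with only the groups compared; the count of 5 at SIM day 8 was 2 without a filter and with DESeq2 and 1 with only the groups compared. For genotype the count of 3 at CIM was 5 with only the groups compared, the count of 2 at SIM day 4 was 1 without a filter and with only the groups compared, and the count of 0 at SIM day 8 was 1 without a filter and 2 with the replicate block. For the difference of light effects the count of 0 at SIM day 4 was 1 with DESeq2 and with only the groups compared, and the count of 1 at SIM day 8 was 2 with the block and with DESeq2; for the difference of genotype effects the count of 1 at SIM day 8 was 0 with only the groups compared. The cause of these moves was not tested. Leaving out 1 library gave counts of 0 to 2 for light at SIM day 4, 1 to 4 at SIM day 8, 0 to 2 for genotype at CIM, SIM day 4 and SIM day 8, 2 to 5 for SIM day 4 to day 8 in hy5-2, and 0 to 1 for the differences of effects other than light at SIM day 8 (1 throughout). The replicate block, in comparisons whose numbers did not pair by the check, added WOX13 (-0.23, adjusted p = 0.00842) and WOX4 (-0.20, adjusted p = 0.0365) for genotype at SIM day 8, WOX4 for light at SIM day 8 (0.21, adjusted p = 0.0242) and WOX13 for the difference of light effects at SIM day 8 (0.28, adjusted p = 0.0407); it ended no call, and among paired comparisons it changed the WOX11 call given in the report alone. Over all genes, the difference of light effects at SIM day 4 gave 520 calls with the block against 289, and SIM day 4 to day 8 in Col-0 in high light gave 3066 with only the groups compared against 4673. WOX12, WOX3, WOX9 and WOX1 had few reads, so changes in them were detectable only where large.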

Other observations

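Among the 5 other WOX genes, WOX2, an embryo gene, had 17, 12 and 16 reads at T0 in hy5-2 and 21, 15 and 6 in Col-0, and 0 or 1 read in every cultured library. It fell at CIM in all 3 series (edgeR adjusted p = 1.35e-07 in hy5-2, 4.41e-07 in Col-0 in high light and 3.27e-07 in low light), and in Col-0 in low light, with 0 reads at CIM, it was at least 21.1-fold lower (3 reads over the group). WOX2 passed the filter on low counts through its T0 libraries alone, so these tests lend no support beyond the reads given. WUS, the shoot stem cell organizer gene, had 0 reads at T0 and CIM in every library, and at SIM day 4 had 16, 19 and 10 reads in hy5-2, 18, 33 and 56 in Col-0 in high light and 4, 4 and 25 in low light. Replicate 3 of Col-0 in low light was thus high at SIM day 4 for WUS (1.61 CPM, against 0.464 and 0.268 in the others) as it was for WOX5.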
